A study of Caenorhabditis elegans with 139 samples.

Results

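A set of 31 genes whose mean level rose at the very end of embryonic development in the nematode Caenorhabditis elegans is described here, out of 20687 genes counted. The genes were chosen by their measured values: a mean of at least 100 CPM (the count of a gene divided by all gene counts of that embryo and scaled up) over the embryos labelled 760 to 840 min, and at least 8 times the mean over the embryos labelled 600 to 660 min. All 31 matched 1 gene of the Ensembl release 115 annotation, and 21 of them carry a symbol. The others are called by their sequence names. They make up 0.15% of the genes, and the contrast that chose them is given below as a description, without a test.

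Late in embryogenesis the C. elegans embryo is fully elongated and moves inside its eggshell, and the epidermis lays down the collagen cuticle of the larva that will hatch. The newly hatched larva meets soil microbes, and its epidermis is known for small secreted antimicrobial peptides, among them the caenacins, the fungus-induced peptides and some neuropeptide-like proteins, which are induced by fungal infection and wounding. Nematodes also carry large families of secreted proteins without a single well-defined task, such as the transthyretin-like proteins and the hedgehog-related ground-domain proteins.

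The study measured polyadenylated RNA in 139 single embryos by CEL-Seq, in which barcoded RNA is amplified linearly and read at the 3′ end. Embryos were cut out of adults, picked at the 4-cell stage and aged, and each carries a labelled time in minutes from the 4-cell stage. This picking cannot hold for the embryos labelled -50 and -30 min, and the labels do not say how those were picked. No strain, genotype or treatment is named in the labels. The late embryos all have title numbers 1 to 50. Among these, 8 embryos were labelled 510 to 590 min, 7 were labelled 600 to 660 min, 4 were labelled 670 to 700 min, 5 were labelled 710 to 750 min and 9 were labelled 760 to 840 min, with 1 embryo at each time. From the embryos with title numbers 95 to 139, 13 labelled 300 to 420 min and 6 labelled -50 to 30 min served to look at the same genes earlier. Nothing in the labels ties embryos to a mother or culture, so a p-value here measures the spread between single embryos, which within a window also differ in age.

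The libraries held 12338 to 4557314 gene counts (median 692649), and those of embryos labelled 600 min or later held 39430 to 1306826. A count of 1 read was worth 25.4 CPM in the shallowest of these, the 670-min embryo, in which 2 of the 31 genes had any count. The 790-min library stood apart within its window: it had 173574 gene counts, spike-in RNA at 0.849% of the gene counts and adult yolk protein transcripts at 5.07%. In the other 8 embryos of 760 to 840 min the spike-ins took 0.180% to 0.402% and the yolk transcripts 0.853% to 1.71%. The 660-min library stood apart in the earlier window by its levels of the 31 genes, given next.

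Before the end phase the 31 genes took a small share of the counts. Their summed share of the gene counts was 0.0080% to 0.0309% in the 8 embryos of 510 to 590 min, and in the 114 embryos of the whole series labelled under 600 min its median was 0.0338% and its highest value 0.201%, in an 80-min embryo. There tost-1 alone held 392 of the 513 reads of the set, at 1539 CPM, against its mean of 106 CPM over 760 to 840 min. From 600 to 650 min the 6 embryos had 0.0123% to 0.0329%. The 660-min embryo had 0.719%. None of the 6 embryos up to 650 min had any of the 31 genes at 50% of its mean over 760 to 840 min or above, and the 660-min embryo had 15 of them there.

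After 660 min the level did not follow the labelled time from embryo to embryo. The summed share was 0.188% at 670 min, 0.0298% at 680 min, 0.0268% at 690 min and 0.194% at 700 min. It was 0.0759% at 710 min, 0.852% at 720 min, 1.30% at 730 min, 0.0361% at 740 min and 0.322% at 750 min. The 680-min and 690-min embryos lay within the range of 510 to 650 min, and the 740-min embryo just above it. From 760 to 840 min, 8 of the 9 embryos had 1.27% to 1.82%, with 23 to 30 of the 31 genes at 50% of their mean or above, and the 730-min embryo lay in that range too, with 22. The 790-min embryo had 0.241%, with 2 genes there. In RNA of whole embryos, fewer cells of a type and less RNA per cell cannot be told apart.

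**Figure D1:**
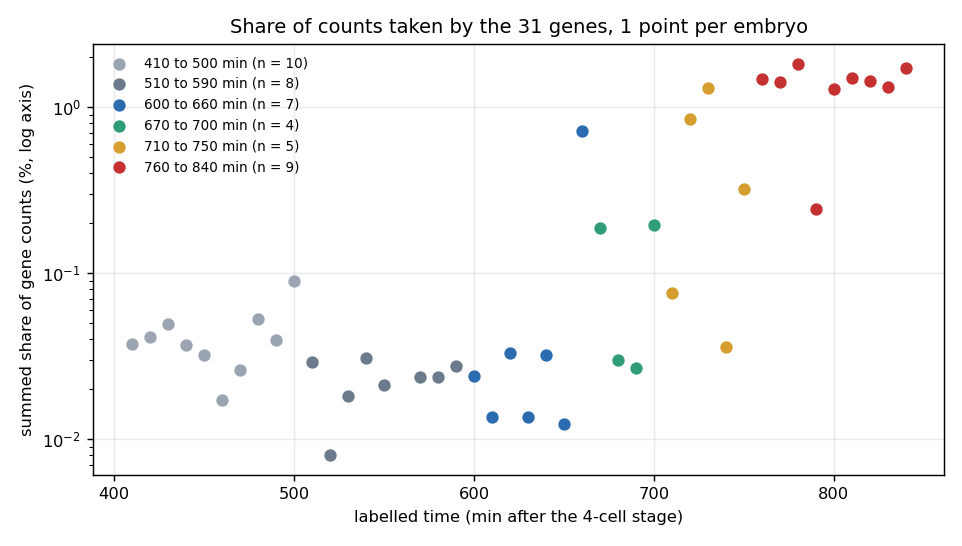
Summed share of gene counts taken by the 31 genes (%, log axis) against labelled time (min after the 4-cell stage), 1 point per embryo with title numbers 1 to 50 labelled 410 min or later and coloured by time window. The embryos of 410 to 650 min lie below 0.1%, 8 of the 9 embryos from 760 min lie above 1%, and the embryos between spread over both levels.

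The rest of the transcriptome ordered these embryos in a similar way. Over 6950 other genes, each embryo's profile of log2(CPM + 10) was correlated with the mean profile of 760 to 840 min and with that of 600 to 660 min, leaving the embryo itself out of either mean. The first Pearson correlation minus the second was -0.217 to -0.150 in the 6 embryos of 600 to 650 min and 0.110 to 0.176 in the 9 embryos of 760 to 840 min. At 660 min it was 0.0642, at 720 min -0.00878, at 730 min 0.0651 and at 750 min 0.0436. At 670 and 700 min it was -0.0888 and -0.0891, and at 680, 690, 710 and 740 min it was -0.138, -0.155, -0.106 and -0.125. The 4 embryos of 660 to 750 min with the highest summed share of the 31 genes, those of 660, 720, 730 and 750 min, also had the 4 highest differences over the other genes. The 790-min embryo differed from this order: its difference was 0.135 beside a low share. These are correlations across genes, which share library and depth within an embryo, and they carry no test.

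The peak level was set by nlp-24, a precursor of neuropeptide-like peptides of the glycine-rich YGGW type to which the epidermal antimicrobial gene nlp-29 also belongs. It averaged 6604 ± 2540.2 CPM over 760 to 840 min (SD, n = 9) against 645 ± 1442 CPM over 600 to 660 min (SD, n = 7). In the later window it ran from 1337 CPM at 790 min through a median of 6461 to 11004 CPM at 780 min. In the earlier one it ran from 35.6 through a median of 122 to 3915 CPM, the last value in the 660-min embryo. Between these windows nlp-24 had 1217, 76.6, 86.9 and 1081 CPM at 670, 680, 690 and 700 min and 272, 5625, 6576, 166 and 1944 CPM at 710, 720, 730, 740 and 750 min. It was high at 720 and 730 min, and at 680, 690 and 740 min it lay within or near the range of 600 to 650 min, which ended at 132 CPM. Gene tag-290, next to nlp-24 on chromosome V on the same strand with no annotated gene between them, reached 385 CPM at 720 min, above all of its values in the last window, and 284 CPM at 730 min, above all but 1.

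Small antimicrobial-type peptides were the best represented family. Of 47 caenacin, fungus-induced and fungus-induced-related genes in the table, 7 were among the 31: cnc-8, cnc-11, fip-5, fipr-2, fipr-4, fipr-6 and fipr-8. The family's summed share was 0.0657% to 0.589% with a median of 0.419% over 760 to 840 min, against 0.0165% to 0.233% with a median of 0.0249% over 600 to 660 min. The caenacin cnc-8 averaged 595 ± 323 CPM over 760 to 840 min and 50.1 ± 126 CPM over 600 to 660 min (SD, n = 9 and 7). Between the windows cnc-8 had 0, 19.7, 53.3 and 66.6 CPM at 670 to 700 min and 14.7, 382, 746, 18.9 and 77 CPM at 710 to 750 min. Its values at 720 and 730 min lay inside its range over 760 to 840 min, 109 to 1102 CPM, and its values at 710, 740 and 750 min lay below it.

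Of the 4 fungus-induced-related genes, fipr-4, fipr-6 and fipr-8 stayed in a narrow range in 8 of the 9 late embryos, and fipr-2 did not, with 23 to 1007 CPM around a median of 467 CPM. Gene fipr-4 had 393 to 683 CPM in the 8 embryos other than 790 min and 51.9 CPM at 790 min, fipr-6 had 147 to 193 and 0 CPM, and fipr-8 had 114 to 164 and 0 CPM. Before that window fipr-4 had 0, 0, 0 and 35.8 CPM at 670 to 700 min and 25.1, 161, 564, 18.9 and 41 CPM at 710 to 750 min, and 281 CPM in the 660-min embryo. These 3 genes lie together on chromosome V, with 2 annotated genes between fipr-4 and fipr-6 and 2 between fipr-6 and fipr-8, and cnc-8 and fip-5 lie on the X chromosome with 1 gene between them. Copies of such small genes can be near-identical, and the line for reads with several alignments holds 0 reads, so the share of each copy is uncertain.

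The other caenacin, cnc-11, behaved differently from the rest of its family. It had no count at 660 min and at most 46 CPM at 670 to 750 min. From 760 to 840 min it had 31.9, 33.5, 54.8, 0, 188, 237, 363, 26.8 and 620.3 CPM, so that its mean of 173 ± 208 CPM (SD, n = 9) rests on the embryos of 800, 810, 820 and 840 min. The nematode-specific peptide gene nspe-6 was late as well: it had no count at 710 to 750 min, 6.41 CPM at 660 min, 0 CPM at 790 min and 30.7 to 188 CPM in the other 8 embryos of 760 to 840 min. Its ratio of 126 between the windows was the highest of all 31 and rests on 1 embryo with any count among the 7 of 600 to 660 min.

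Of the hedgehog-related genes, the ground-like gene grl-21 averaged 492.6 ± 249 CPM over 760 to 840 min and 19.9 ± 36.8 CPM over 600 to 660 min (SD, n = 9 and 7). It had 0, 24.1, 0 and 31.8 CPM at 670 to 700 min and 0, 9.87, 178, 7.88 and 4 CPM at 710 to 750 min, so that at 720 min, where nlp-24 was near its late mean, grl-21 was still low. The groundhog gene grd-10 was the least abundant of the set with tost-1, at 106 ± 54.4 CPM over 760 to 840 min and 12.7 ± 25.4 CPM over 600 to 660 min. These were 2 of 59 family members in the table.

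The 2 transthyretin-like genes among the 31, of 58 in the table, were ttr-31 and ttr-26. The first averaged 288 ± 126 CPM over 760 to 840 min against 32.6 ± 81.8 CPM over 600 to 660 min (SD, n = 9 and 7), and had 67.1, 220.4, 511, 0 and 23 CPM at 710 to 750 min. The second averaged 181 ± 103 CPM against 18.3 ± 41.1 CPM and at 710 to 750 min was above 10 CPM in the 730-min embryo alone, at 118 CPM.

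Cuticle-related members were 2 of the 177 collagen genes and the tyrosinase-related gene tyr-6; enzymes of the tyrosinase type oxidise phenols. The collagen col-39 averaged 269.8 ± 125 CPM over 760 to 840 min and 29.1 ± 67.2 CPM over 600 to 660 min (SD, n = 9 and 7). Collagen genes as a family took a median of 5.07% of gene counts over 760 to 840 min and 7.47% over 600 to 660 min. Gene tyr-6 averaged 212 ± 101 CPM over 760 to 840 min and 24.6 ± 53.5 CPM over 600 to 660 min. The other collagen, col-147, was unlike col-39: it had 1.6 CPM in the 660-min embryo and at most 10.9 CPM at 670 to 750 min.

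Within the last window, col-147 and scl-3, which encodes a secreted protein of the SCP type, varied from embryo to embryo, as did C06B3.6 and tag-290. At 760, 810 and 830 min scl-3 had 476, 266 and 497 CPM and col-147 had 110.4, 303 and 417 CPM. In these embryos C06B3.6 had 3.41, 35.3 and 24.5 CPM and tag-290 had 36.4, 33 and 58.9 CPM. At 780, 800 and 820 min C06B3.6 had 213, 239.9 and 172 CPM and tag-290 had 95.9, 167 and 354 CPM, and there scl-3 had 46.9, 5.33 and 102 CPM and col-147 had 119, 84 and 56.4 CPM. The 2 sets of embryos were formed by these values, so the gap between them for scl-3, C06B3.6 and tag-290 follows from the choice. For col-147 the ranges overlapped. At 770 min tag-290 had 177 CPM and the other 3 genes had at most 4.79 CPM. The 840-min embryo had 237 CPM of scl-3, 289.8 CPM of col-147, 308 CPM of C06B3.6 and 232 CPM of tag-290. The sets were picked after the values were seen, and a difference between them was not tested.

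**Figure D2:**
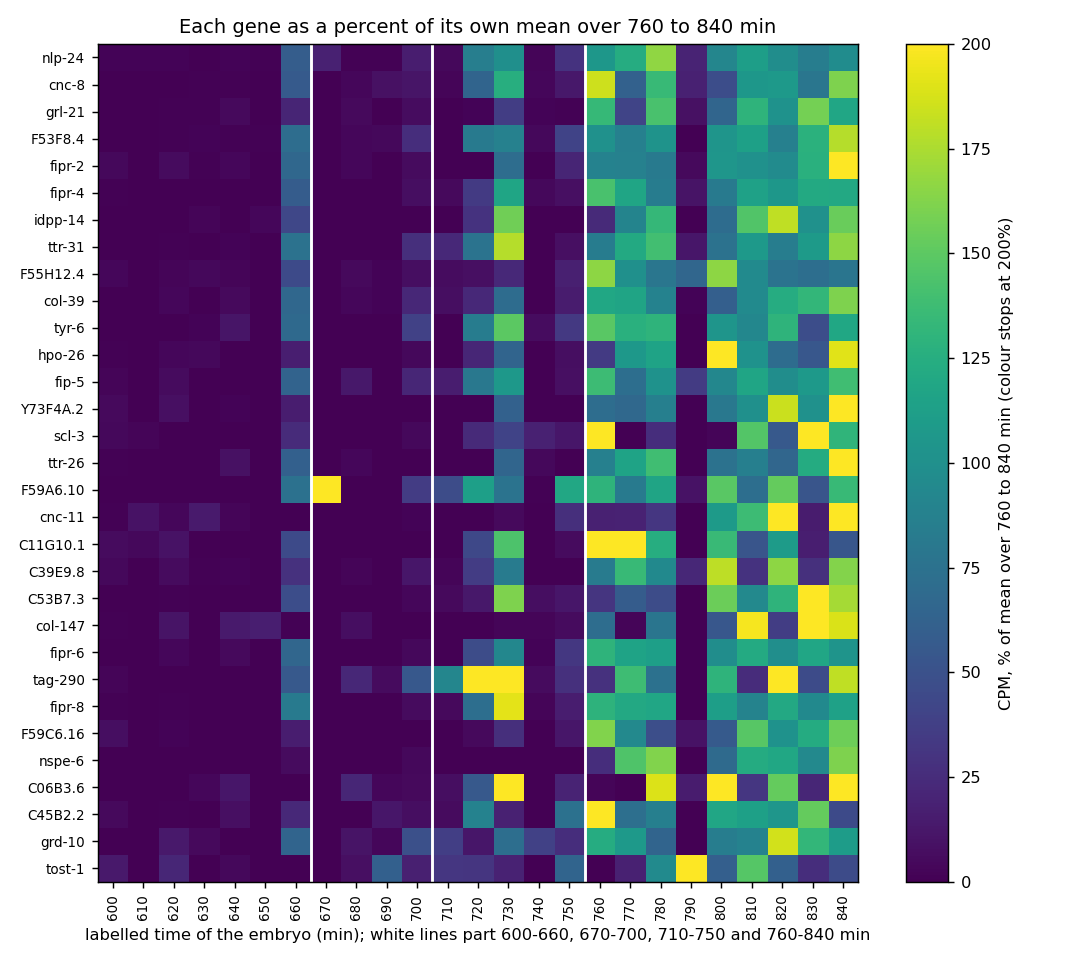
CPM of each of the 31 genes in each embryo labelled 600 to 840 min, as a percent of that gene's own mean over 760 to 840 min, with the colour scale ending at 200%. Rows are ordered by that mean from nlp-24 (6604 CPM) to tost-1 (106 CPM). The columns of 660, 720 and 730 min are bright beside dark neighbours, and the 790-min column is dark beside bright ones.

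Most of the remaining genes have no well-described role. Among them F53F8.4 averaged 485 ± 226 CPM over 760 to 840 min and 54.6 ± 129 CPM over 600 to 660 min, and idpp-14 averaged 355 ± 216 and 24.9 ± 56.4 CPM. F55H12.4 averaged 281 ± 109.7 CPM over 760 to 840 min and 23.5 ± 45.7 CPM over 600 to 660 min, with 184 CPM in the 790-min embryo. In that embryo nlp-24, cnc-8, F55H12.4 and tost-1 were above 100 CPM and the other 27 genes were not. Genes hpo-26, Y73F4A.2, F59A6.10, C11G10.1, C39E9.8, C53B7.3, F59C6.16 and C45B2.2 averaged 111 to 202 CPM over 760 to 840 min. F59A6.10 had 659 CPM in the shallow 670-min embryo, above all of its other values.

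By position, 12 of the 31 genes were on chromosome V, or 38.7%, where 25.2% of all matched genes and 17.9% of the genes with at least 100 CPM over 760 to 840 min lie. Another 7, or 22.6%, were on the X chromosome, against 13.7% of all matched genes. For 9 of the 31 the annotation has another counted gene overlapping on the opposite strand, and no source used here states whether the counting used strand. These partners had at most 69.9 CPM on average over 760 to 840 min, the highest being dph-2 opposite col-39, and glb-15 opposite nlp-24 had 3.76 CPM.

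The choice of the 31 depended on the 660-min embryo more than on any other. This embryo held over 50% of the summed CPM of 600 to 660 min for 27 of the 31 genes, with a median of 83.9%, and none of it for cnc-11, C06B3.6 and tost-1. The median ratio between the windows was 11.9 by the rule and, over the 29 genes with a count at 600 to 650 min, 65.8 with the 660-min embryo left out. Without it the rule gave 79 genes, the 31 and 48 more, among them the ground-like gene grl-4, the tyrosinase-related gene tyr-2, ttr-15, the collagens col-12 and col-130, nlp-29, fipr-3 and fipr-21. Just inside the line of 8 times were fipr-8 at 8.29, grd-10 at 8.40, tyr-6 at 8.61, fipr-2 at 8.63 and ttr-31 at 8.82. Just outside were ttr-15 at 7.90, nlp-29, F59A7.2 and C25H3.10 at 7.57, and fipr-3 at 7.48. At the line of 100 CPM the lowest inside were tost-1 and grd-10 at 106 CPM and C45B2.2 at 111 CPM, and the highest outside F31F7.1 at 99.95, fipr-7 at 99.6 and marg-1 at 95.4 CPM.

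To ask whether the genes were already on in embryos that had no part in choosing them, the 9 embryos of 670 to 750 min were compared with the 8 of 510 to 590 min. How many of the 31 genes were called higher in the later embryos depended on the test and its filter: 1 of 1 tested in edgeR with its filter, 20 of 31 without it and 14 of 31 in DESeq2. In edgeR's quasi-likelihood test with its filter on low counts 1 of the 31 genes, nlp-24, was tested, since the others are low in most of the 17 embryos. It averaged 1894 ± 2479 CPM in the 9 embryos of 670 to 750 min and 77.8 ± 40 CPM in the 8 embryos of 510 to 590 min (SD), and was called higher by 4.67 ± 0.78 on the log2 scale (SE, Benjamini-Hochberg adjusted p = 5.97e-05). The call needs an adjusted p under 0.05 over all genes tested and a fold of at least 2. In this fit 7.68% of 4400 genes were called higher and 8.34% lower, and the median of all genes was -0.20 on the log2 scale, or -0.33 with relative log expression scaling.

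With no filter on low counts, edgeR called 20 of the 31 higher and 0 lower, where 6.54% of 14032 genes were called higher and 9.26% lower. DESeq2 called 14 of the 31 higher and 0 lower, where 4.13% of the genes were called higher and 5.72% lower. At an unadjusted p under 0.05, 22 of the 31 passed in edgeR without the filter and 18 in DESeq2. For nlp-24, edgeR without the filter gave a SE of 0.46 and an adjusted p of 1.87e-20, against 0.78 and 5.97e-05 with it. The p-values without the filter may therefore be too small. The median log2 fold change of the 31 was 3.58, or 3.47 with the genes absent from all 510 to 590 min embryos set at their lower bounds, beside -0.33 for all genes. The count rests in part on the 730-min embryo: it was 12 without it and 17 without the 720-min embryo.

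Among the genes called without the filter was every fungus-induced member of the set and cnc-8, in all 6 of the 7 members of that family. DESeq2 called 3 of the 7, cnc-8, fipr-4 and fipr-6, and did not call fip-5 (adjusted p = 0.0861), fipr-8 (adjusted p = 0.161), fipr-2 (adjusted p = 0.783) or cnc-11 (adjusted p = 0.851). Gene fipr-6 had no count in the 8 embryos of 510 to 590 min and counts in 5 of the 9 embryos of 670 to 750 min, the highest 138 CPM at 730 min. With the absent group set at 3 counts over all its embryos it was at least 31.7-fold higher in the 670 to 750 min group, and by the same measure grd-10 was at least 44.3-fold, hpo-26 at least 19.7-fold and ttr-26 at least 10.6-fold higher. The 730-min embryo held 29 of the 37 reads of ttr-26 and 32 of the 69 of hpo-26, and without it these bounds were 2.41-fold and 11.2-fold. For fipr-6 and grd-10 the lowest bounds with 1 of the later embryos left out were 22.9-fold and 37.5-fold. Gene grd-10 had counts in 8 of the 9 later embryos, from 3.95 to 77 CPM, so its call drew on more embryos than that of ttr-26, with counts in 3.

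Gene fipr-4 averaged 93.9 ± 183 CPM in the 9 embryos of 670 to 750 min and 2.89 ± 4.22 CPM in the 8 embryos of 510 to 590 min (SD), a log2 fold change of 4.79 ± 0.86 (SE, adjusted p = 1.04e-06 in edgeR without the filter). For cnc-8 the means were 153 ± 251 and 10.3 ± 9.72 CPM, with a log2 fold change of 3.58 ± 0.68 (adjusted p = 4.72e-06). The groups overlapped for both genes: fipr-4 had no count at 670, 680 and 690 min, and cnc-8 was below 23.7 CPM, its highest value at 510 to 590 min, in the embryos of 670, 680, 710 and 740 min. The ground-like gene grl-21 averaged 28.4 ± 57.3 CPM in the 670 to 750 min embryos and 0.728 ± 2.06 CPM in the 510 to 590 min embryos, with a log2 fold change of 4.51 ± 1.27 (adjusted p = 0.0063). In all 3 the SD of the later group was larger than its mean. DESeq2 gave adjusted p of 0.0116 for fipr-4, 0.000154 for cnc-8 and 0.00984 for grl-21.

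Also called were tyr-6 at 4.63 ± 0.91, ttr-31 at 3.47 ± 0.75 and col-39 at 2.65 ± 0.92 (log2 fold change ± SE), with adjusted p of 1.23e-05, 0.000123 and 0.0353 in edgeR without the filter. The adjusted p of these 3 genes in DESeq2 was 0.0499, 0.00608 and 0.0433. Gene idpp-14 was called at 5.48 ± 0.99 (adjusted p = 1.44e-06) from counts in 2 of the 9 later embryos, 105 CPM at 720 min and 555 CPM at 730 min, and DESeq2 did not call it (adjusted p = 0.72). F59A6.10 was called at 5.68 ± 0.85 (adjusted p = 1.71e-09, and 0.000567 in DESeq2), and 659 CPM of its later group stood in the 670-min embryo.

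Not called without the filter were F55H12.4, Y73F4A.2, scl-3, cnc-11, C11G10.1, C39E9.8, C53B7.3, col-147, F59C6.16, nspe-6 and tost-1. The lowest log2 fold changes were -0.39 ± 1.45 for col-147, -0.31 ± 1.33 for nspe-6, -0.19 ± 0.76 for tost-1, 0.56 ± 1.38 for F59C6.16 and 0.77 ± 1.36 for cnc-11 (SE). Each of these standard errors was larger than the fold change beside it. They were derived from the test statistic, so this restates the outcome of the test.

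**Figure D3:**
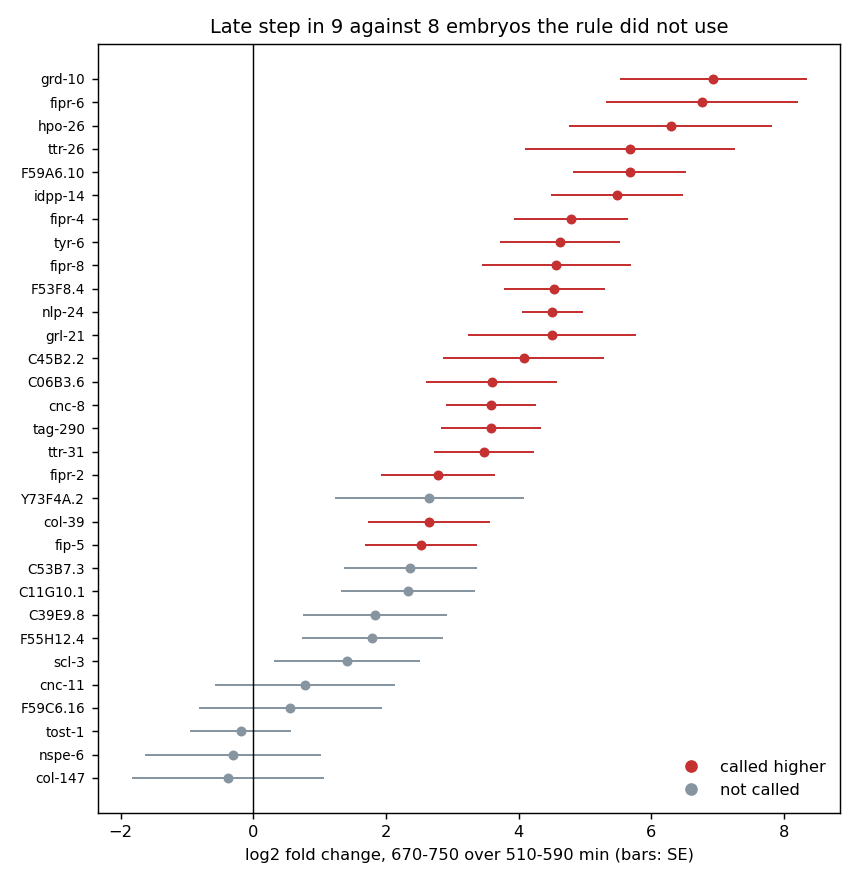
Log2 fold change of each of the 31 genes in the 9 embryos of 670 to 750 min over the 8 embryos of 510 to 590 min, from edgeR without a filter on low counts, with bars of 1 standard error. The 20 genes called higher are red and the 11 not called are grey; grd-10, fipr-6, hpo-26 and ttr-26, near the top, had no count in the 510 to 590 min embryos, so that their fitted values are not bounds.

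Counted embryo by embryo, the number of the 31 genes above all 8 embryos of 510 to 590 min was 2 at 670 min, 5 at 680 min, 3 at 690 min and 16 at 700 min. It was 7 at 710 min, 23 at 720 min, 27 at 730 min, 7 at 740 min and 17 at 750 min. The same number over all genes was not computed, so the low numbers cannot be set apart from those of unchanged genes. For grd-10, fipr-6, hpo-26 and ttr-26, with no count at 510 to 590 min, 1 read was enough. The 4 highest numbers were at 700, 720, 730 and 750 min. In these embryos the transcripts of the adult yolk proteins, which come from the mother, took 0.283%, 0.172%, 0.332% and 1.65% of gene counts, and 0 of the 6 yolk genes were called in either direction between the groups by edgeR with or without the filter. Between the windows that chose the genes the median yolk share was higher in the later one: the share was 0.853% to 5.07% with a median of 1.46% over 760 to 840 min, against 0.159% to 1.03% with a median of 0.509% over 600 to 660 min, and its part in the choice was not tested.

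**Figure D4:**
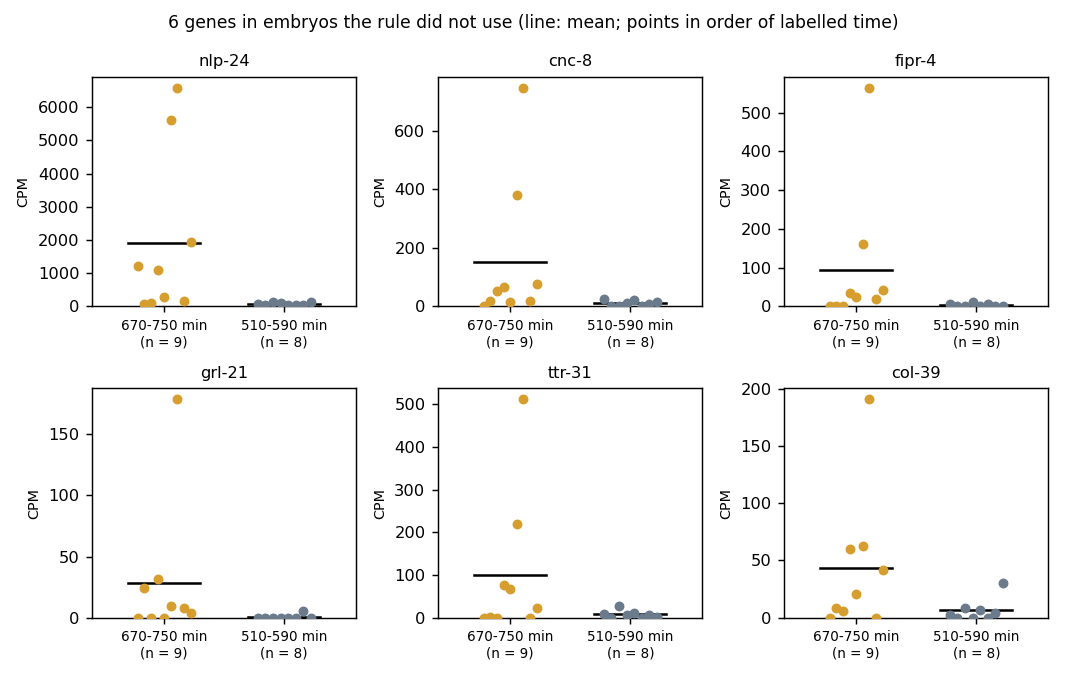
CPM of nlp-24, cnc-8, fipr-4, grl-21, ttr-31 and col-39 in the 9 embryos of 670 to 750 min (left) and the 8 embryos of 510 to 590 min (right), 1 point per embryo in order of labelled time, with the mean as a line. For each gene the highest point is the 730-min embryo, and several later embryos lie as low as the 510 to 590 min group.

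Families that hold members did not all move as those members did between 670 to 750 min and 510 to 590 min. Of 64 neuropeptide-like genes tested without the filter 17 were called higher and 0 lower, and with the filter 6 of 27 and 0, among them nlp-29 and nlp-33 besides nlp-24. Of 28 caenacin and fungus-induced genes tested without the filter 13 were called higher and 3 lower, the lower ones being cnc-3, fip-7 and fipr-27, and with the filter 0 higher and 1 lower of 2. Of 49 transthyretin-like genes 13 were called higher and 7 lower, with a median log2 fold change of 1.26, and with the filter 7 and 4 of 19. Collagens had 38 called higher and 17 lower of 156 without the filter, and 32 and 3 of 77 with it, with medians of 0.02 and 0.58 on the log2 scale. In the hedgehog-related family 20 of 47 were called lower and 11 higher without the filter, with a median of -2.37, and 9 and 3 of 15 with it, so that grl-21 and grd-10 moved against the larger share of their relatives.

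The sixth list with a member was the SCP-like secreted proteins, which held scl-3: of its 24 genes 6 were tested without the filter, with 1 called higher and 1 lower, and 0 with it. None of the remaining lists held one of the 31 genes. These include 34 genes of moulting and the apical matrix, of which 0 were called higher and 7 lower of 11 tested with the filter, with lpr-3, mlt-9 and mlt-10 among the lower. They also include 38 intestine genes, 26 body wall muscle genes, 19 pharynx genes, 28 synaptic and neuronal genes, 6 yolk protein genes, 33 sperm genes and 5 enzymes of hatching and the eggshell. Over the same comparison and with the filter, 10 of 24 muscle genes tested, 7 of 11 pharynx genes, 5 of 20 neuronal genes and 5 of 27 intestine genes were called higher. In that fit 7.68% of 4400 genes were called higher and 8.34% lower. Calls of lower in these tissue lists are not given here, so no direction of a tissue is read from them. Of the 31 genes, 15 belong to 1 of the 38 lists and 16 to none.

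Inside the gap, the 5 embryos of 710 to 750 min were compared with the 4 of 670 to 700 min. With the filter 15 of the 31 genes were tested and edgeR called 0 of them, in a fit in which 0% of 4291 genes were called; at an unadjusted p under 0.05 there were 5 of the 15 genes and 85 of all genes. All 15 had a positive log2 fold change, with a median of 2.098 beside 0.18 for all genes. The filter can keep a gene for its counts in the later group alone, so these signs were in part set by it. With all 31 genes kept, 30 had a positive log2 fold change, with a median of 2.48 beside 0.24 for all genes. All 31 were read in the same 9 embryos, so this is not a count of replicates. The summed share was highest at 720 and 730 min, at 0.852% and 1.30%, and the 670-min library held 39430 gene counts. No embryo was left out in turn in the fit without the filter. Without the filter edgeR called nlp-24 and idpp-14 higher, where 0.0405% of 12359 genes were called higher and 0.0485% lower, and DESeq2 called idpp-14 alone, where 0.00822% were. Gene nlp-24 averaged 2917 CPM in the 710 to 750 min embryos and 615 CPM in the 670 to 700 min embryos, with a log2 fold change of 2.44 ± 0.57 (SE, adjusted p = 0.0288 without the filter) and 2.51 ± 0.97 (adjusted p = 1) with it. Simulated counts of these 9 embryos gave calls, with the filter, for 5 of 100 genes set to change 4-fold and for 27 of 100 set to change 8-fold.

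The earlier history of the 31 genes was read in the embryos with title numbers 95 to 139, of which 13 at 300 to 420 min were compared with 6 at -50 to 30 min. In this comparison 51.7% of 8226 genes were called higher and 15.4% lower, and the median of all genes was 1.2001 on the log2 scale, so a rise was common. That median moved to 0.71 with relative log expression scaling and to -0.49 in DESeq2, and the 5 genes named next kept their direction and call under both. Of the 31 genes 5 passed the filter. The filter can keep a gene for its counts in 1 group alone, so the direction of these calls was in part set by it. At -50 to 30 min fip-5 had at most 1.36 CPM and F55H12.4 at most 7.07 CPM. Gene nlp-24 was called higher by 3.12 ± 0.67, fip-5 by 4.54 ± 0.76 and F55H12.4 by 3.92 ± 0.73 (log2 fold change ± SE, edgeR adjusted p = 0.000191, 8.69e-06 and 3.42e-05). Their levels were low on the scale of the last window: nlp-24 averaged 32.9 ± 22.8 CPM at 300 to 420 min and 14.7 ± 16.39 CPM at -50 to 30 min, fip-5 averaged 11.2 ± 8.36 and 0.494 ± 0.625 CPM, and F55H12.4 averaged 25.7 ± 22.5 and 1.7 ± 2.78 CPM (SD, n = 13 and 6). In the shallow embryos of 0, 20 and 30 min 1 read was worth 33.3, 36.8 and 42.3 CPM. The nlp-24 values at 0 and 20 min were 1 read each. Without the filter 29 of the 31 were tested, and 12 were called higher and 2 lower, where 33.4% of 16285 genes were called higher and 16.8% lower. DESeq2 tested the same 29 genes and called 4 higher and 2 lower, where 23.8% were called higher and 13.2% lower, and the median log2 fold change of the 29 was 0.27 in DESeq2 and 2.41 in edgeR without the filter.

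The 2 called lower were tost-1 and C06B3.6. TOST-1 is a small protein that acts with the PETISCO complex in the germline and early embryo and is needed from the mother for embryos to live. Its transcript averaged 499.5 ± 299 CPM at -50 to 30 min (SD, n = 6), 859 ± 393 CPM at 40 to 100 min (n = 7), 339 ± 46.1 CPM at 110 to 190 min (n = 9), 171 ± 95.9 CPM at 200 to 290 min (n = 10) and 36.3 ± 26.9 CPM at 300 to 420 min (n = 13). It was called lower at 300 to 420 min by 2.67 on the log2 scale (log2 fold change -2.67 ± 0.35, SE, edgeR adjusted p = 2.34e-07). At 760 to 840 min tost-1 had 0, 19.2, 102, 472, 64, 156, 65.4, 27.5 and 48.3 CPM. The 472 CPM stood in the 790-min embryo, the one with the highest yolk share, and without that embryo, or without the 810-min embryo, tost-1 did not meet the rule.

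C06B3.6 was called lower, with a log2 fold change of -2.48 ± 0.88 (SE, edgeR adjusted p = 0.0146) and 2.81 ± 3.63 CPM at 300 to 420 min and 60.4 ± 115 CPM at -50 to 30 min (SD, n = 13 and 6). The call rests on the 20-min embryo, which had 295 CPM, or 8 reads, where the other 5 of that group had 0 to 33.3 CPM. Without the 20-min embryo the log2 fold change was -1.01 and the adjusted p 0.21. In the last window C06B3.6 did not meet the rule without any 1 of the 780-min, 800-min and 840-min embryos.

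**Figure D5:**
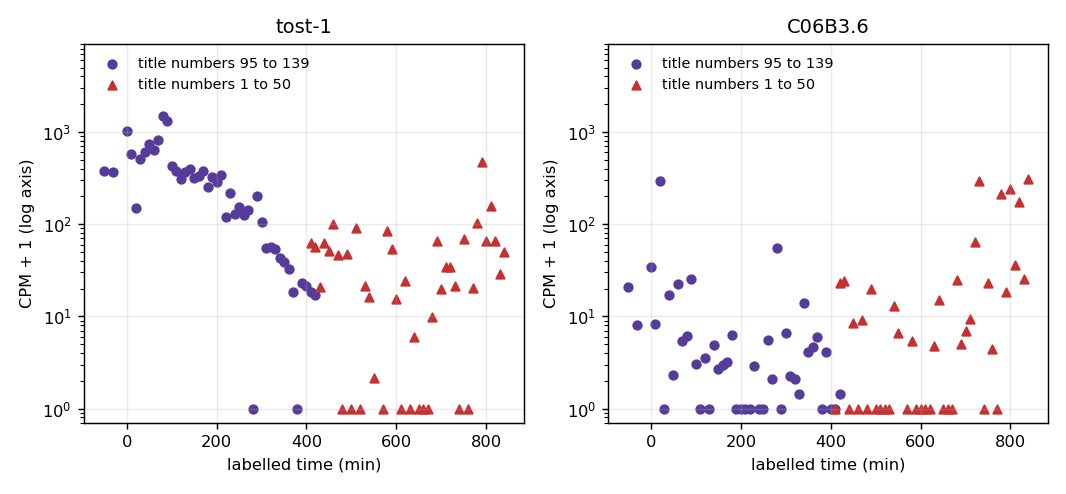
CPM + 1 (log axis) of tost-1 and C06B3.6 against labelled time (min), 1 point per embryo, with circles for title numbers 95 to 139 and triangles for title numbers 1 to 50 from 410 min on. The tost-1 points fall over the first 400 min and scatter between 0 and 472 CPM in the last window; C06B3.6 has 1 early point at 295 CPM and several late points above 100 CPM.

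Single embryos under 600 min had isolated high values of a few other members. The highest were 615 CPM of scl-3 in a 200-min embryo, 339.7 CPM of nlp-24 at 480 min, 336 CPM of tag-290 at 500 min, 259 CPM of F55H12.4 at 340 min, 242 CPM of ttr-26 at 400 min and 237 CPM of cnc-8 at 340 min. The values at 200, 340 and 400 min stood in 3 shallow libraries with 17878, 88778 and 124051 gene counts, in which spike-ins came to 17.5%, 6.58% and 5.52% of the gene counts, against under 1% in 134 of the 139 embryos. There 73.6% to 87.2% of reads were not aligned, and the 615 CPM of scl-3 are 11 reads. In contrast fipr-6, fipr-8 and nspe-6 stayed at or below 8.23 CPM in all 114 embryos under 600 min, where nspe-6 had a count in 3 of them and cnc-11 in 4. Among the embryos with title numbers 1 to 50 from 410 min on, the earliest at 50% of the mean of 760 to 840 min was the 660-min embryo for 14 genes, an embryo of 710 to 750 min for 8 and an embryo of 760 min or later for 7. For tost-1 it was the 410-min embryo and for tag-290 the 480-min embryo.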

How the data were processed

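The authors deposited 1 table of raw read counts per gene and embryo (20687 genes, 92 spike-ins and 5 counter rows for 139 embryos), with no normalization applied. The submitters' processing notes name CASAVA 1.8, Bowtie2 2.1.0 and HTSeq 0.5.4p3; the genome build and the use of strand are not given in the sources used here. No molecular identifiers are named, so counting error is a lower limit on error. Over all embryos 47.2% of reads fell in genes and 52.6% in the counters. CPM were computed over gene rows. Comparisons were fitted on the whole table with edgeR 4.0.16 in R 4.3.3 (TMM, filterByExpr with a minimum count of 10, quasi-likelihood F-test). The SE beside an edgeR fold change is the absolute log2 fold change divided by the square root of the F statistic. A call needed a Benjamini-Hochberg adjusted p under 0.05 over all genes tested and a fold of at least 2. Alternatives were no filter, relative log expression scaling, DESeq2 1.42.0, leaving out each embryo, and other lines for the choice of genes. Embryos were kept apart by blocks of title numbers (1 to 50, 95 to 139), since the labels name no batch. On simulated counts without the filter for 670 to 750 against 510 to 590 min, 9 of 100 genes changed 4-fold, 36 of 100 changed 8-fold and 4 of 13832 unchanged genes were called. With the filter these were 48 of 100, 65 of 100 and 3 of 4200. All simulated counts were drawn from 1 mean share per gene and group, with the spread that edgeR had estimated. The real embryos of 670 to 750 min spread from the early to the late level, so the simulated numbers of calls do not carry over to them. The 31 genes, the 38 gene lists and the comparisons were chosen with earlier results of these data known. Genes were named by rank of level, of fold change in each comparison, of nearness to the choice lines and of timing; other names were picked after their values were seen. Names, chromosomes and neighbours come from Ensembl release 115, matched for 20038 genes. No sequence is shown. Figures were made with matplotlib 3.10.9.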

Additional observations from a re-analysis of the deposited data

Results flagged for a closer look

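Single embryos stood far from the others of their window, by a gap test that flags about 1 in 20 groups of normally distributed values by chance. Values of single genes here are skewed, with many at 0, so that rate does not hold for them. The summed share of the 31 genes was flagged for the 660-min embryo, the highest of 600 to 660 min at 0.719%, and for the 790-min embryo, the lowest of 760 to 840 min at 0.241%. It was also flagged for the 500-min embryo, the highest of 410 to 500 min at 0.0893%, and, among title numbers 95 to 139, for the highest embryo of -50 to 30 min at 0.110%. Spike-in counts relative to gene counts were flagged as highest in the 790-min embryo at 0.849%, in the 440-min embryo at 0.377% and in 1 embryo of 200 to 290 min with title numbers 95 to 139 at 0.478%.

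Taken gene by gene, 26 of the 31 genes had 1 embryo far from the others at 600 to 660 min, and for 25 of them it was the 660-min embryo. At 670 to 700 min there were 15 such genes, 12 of them for the 700-min embryo, and at 710 to 750 min 9, of which 8 were for the 730-min embryo. At 510 to 590 min there were 19, spread over 7 embryos, where most values are 0 and a few reads set the gap. At 760 to 840 min there were 4, all at the 790-min embryo.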

How the results depend on the processing

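The number of genes chosen moved with the lines of the rule: 105 at 4-fold, 11 at 16-fold, 60 at 50 CPM, 12 at 200 CPM and 72 with medians in place of means, against 31. Leaving out 1 embryo gave 24 to 79. With TMM-scaled CPM it was 25, of which 24 were among the 31. The 7 lost were F53F8.4, fipr-2, fipr-8, grd-10, tost-1, ttr-31 and tyr-6. Without the 600-min, 610-min, 630-min or 650-min embryo 7 were lost each time: F53F8.4, col-39, fipr-2, fipr-8, grd-10, ttr-31 and tyr-6. For 670 to 750 against 510 to 590 min, edgeR without the filter called 20 of the 31 genes higher and, over all genes, 918 higher and 1300 lower, and DESeq2 called 14, 579 and 802. Leaving out 1 embryo gave 1 to 4 of the 31, 214 to 418 genes higher and 313 to 458 lower with the filter, and 12 to 21, 648 to 847 and 834 to 1104 without it. With the filter the fewest higher came without the 700-min (214), 690-min (222) and 750-min (225) embryos; without it, the 730-min embryo gave the 12 and the 834, and the 700-min embryo 851 lower. For 710 to 750 against 670 to 700 min, no filter gave 2 of the 31, 5 genes higher and 6 lower, and DESeq2 gave 1 and 1 higher. Embryos were left out in the fit with the filter alone, which called 0 genes with all embryos and 0 each time. There the log2 fold change of tost-1, 0.26, ran from -0.0426 without the 670-min embryo and -0.0249 without the 680-min embryo to 1.43 without the 690-min embryo. For 300 to 420 against -50 to 30 min, no filter gave 12 of the 31 higher and 2733 genes lower, and DESeq2 gave 4 of the 31 higher and 2149 genes lower. Leaving out 1 embryo, done with the filter alone, gave 3 to 4 of the 31 higher and 1 to 2 lower. Over all genes it gave 3528 to 4479 higher and 1192 to 1958 lower, the most without the 30-min (1958) and 0-min (1942) embryos. The cause was not tested. Among fold changes of single genes, 289 kept direction and call, 1 gained and 1 lost a call, and 2 reversed. No paired analysis was possible because replicate numbers were given in accession order and pair no embryos. Depth limits genes of few reads: the filter left 1 of the 31 in the first of these comparisons.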
